A study of Homo sapiens with 15 samples.

Results

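Expression of 9 genes of amino acid transport and glutamine metabolism was examined in the human pancreatic carcinoma line MIA PaCa-2. These were SLC7A5, SLC3A2, SLC1A5, SLC38A1, SLC38A2, SLC38A9, GLUL, GOT1 and GOT2. They were taken by gene symbol from the 60107 genes listed for each library, and each symbol matched a single row. Of the 9 genes, 8 passed the filter on low counts and were tested, while GLUL did not pass it.

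Leucine and other large neutral amino acids enter cells through LAT1, a heterodimer of the light chain SLC7A5, which carries the substrate, and the heavy chain SLC3A2 (4F2hc or CD98), which brings the light chain to the plasma membrane. Glutamine enters through the sodium-dependent exchanger SLC1A5 (ASCT2) and the sodium-coupled carriers SLC38A1 (SNAT1) and SLC38A2 (SNAT2), and LAT1 is known to exchange intracellular glutamine for leucine. Inside the cell, GLUL (glutamine synthetase) makes glutamine from glutamate and ammonia, and the cytosolic GOT1 and mitochondrial GOT2 interconvert glutamate and aspartate within the malate-aspartate shuttle. SLC38A9 sits on the lysosomal membrane, where it senses arginine and signals to mTORC1 through the Ragulator complex and the Rag GTPases. Pancreatic cancer cells are known for their use of glutamine and of GOT1, and the lysosome is a further source of amino acids in them.

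Cells received vehicle (Ctrl), Lys05, BAQ12, BAQ13 or BAQ12O, each agent at 5 µM over 24 h, and 3 libraries per group gave 15 in all. Lys05 is a lysosomotropic inhibitor of autophagy. BAQ12 and BAQ13 join its cationic head to the hydrophobic tail of a lysosomotropic detergent, assemble into nanoparticles, and differ from each other by a single methylene unit. What distinguishes BAQ12O is not given in the sources used here. All groups came from 1 established line without genetic change, and the labels do not say whether the 3 libraries of a group were separate cultures, so p-values measure the spread between these libraries, which may be technical.

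The libraries held between 1586566 and 2500551 reads assigned to genes (median 2230594), and 3 reads, taken as the limit of detection, were worth 2.49 to 4.14 normalised counts. These limits cover counting error only. The third BAQ12 library stood apart from the rest. Over 5534 well-counted genes its Pearson correlation (log2 scale) with the other BAQ12 libraries was 0.908 and 0.923, whereas those libraries correlated with each other at 0.990. This library held the lowest value of all 15 for SLC7A5, SLC3A2, SLC1A5, SLC38A2 and GOT1 and the highest for GOT2, so results are also given without it. Among the markers of epithelial cells, KRT8, KRT18 and KRT19 were counted in every library (lowest value 175, for KRT8), EPCAM and KRT7 had at most 1 read in a library, and CDH1 had at most 5. VIM lay between 9198 and 10781 normalised counts, and the acinar markers PRSS1, CPA1 and CELA3A were at 0 in all libraries. Of the fibroblast markers, COL1A2 lay between 148 and 252 normalised counts, COL1A1 had at most 2 reads in a library and DCN had 0. In bulk RNA, fewer cells of a kind and less RNA per cell cannot be told apart.

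SLC7A5 (ENSG00000103257) lies on chromosome 16 from 87830023 to 87869488 on the minus strand (GRCh38, GENCODE release 29). SLC3A2 (ENSG00000168003) lies on chromosome 11 from 62856102 to 62888875 on the plus strand. The bases upstream of their RefSeq start sites (GRCh38.p14) are shown because the light chain was the member that passed the test and the heavy chain is its partner. All 9 genes had a RefSeq promoter window of 250 bases before and 50 bases after a start, with 17 windows among them. Both strands of the windows were searched for CACGTG, the E-box read by MYC and by the lysosomal regulators of the MiT/TFE family, and for TGATGNAAN, the composite C/EBP-ATF element of amino acid response genes. No window of a member held both motifs. Capitals mark the E-box, whose first base lies at -130 from the SLC7A5 start (chr16:87869508-87869757, minus strand). The stretch shown for SLC3A2 (chr11:62881449-62881698, plus strand) stops before the start and holds neither motif. The 50 bases of the same window after the start, which are not shown, hold TGATGNAAN with its first base at 37.
SLC7A5: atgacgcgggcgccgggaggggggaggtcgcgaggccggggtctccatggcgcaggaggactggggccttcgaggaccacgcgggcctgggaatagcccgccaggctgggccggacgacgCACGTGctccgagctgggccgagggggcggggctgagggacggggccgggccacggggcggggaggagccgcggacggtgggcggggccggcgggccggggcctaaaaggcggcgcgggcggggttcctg
SLC3A2: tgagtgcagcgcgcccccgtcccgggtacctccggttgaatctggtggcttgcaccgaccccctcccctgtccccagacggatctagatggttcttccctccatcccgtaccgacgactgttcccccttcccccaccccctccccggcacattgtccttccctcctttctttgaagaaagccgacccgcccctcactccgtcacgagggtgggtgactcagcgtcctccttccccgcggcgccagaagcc
CACGTG was found in 7.26% of all 35116 windows and TGATGNAAN in 3.61%. Besides SLC7A5, CACGTG occurred in 1 window of SLC1A5. TGATGNAAN occurred in the GOT1 window, where its first base lay at -199. It also occurred in 1 window each of SLC3A2 (the window shown in part, at 37), SLC38A1 and SLC1A5. A match describes the letters only.

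SLC7A5, the substrate-carrying chain of LAT1, was lower in all treated libraries than in any vehicle library. The vehicle libraries held 218, 218 and 221 normalised counts and the Lys05 libraries 185, 168 and 185. The BAQ12 libraries held 153, 153 and 111, the BAQ13 libraries 123, 139 and 123, and the BAQ12O libraries 121, 144 and 113. The vehicle values were nearly equal, the Lys05 values lay between those of vehicle and of the other agents without overlap, and the values of the BAQ12, BAQ13 and BAQ12O groups overlapped among themselves. No difference between Lys05 and another group passed the limma test over all 15 libraries, so a separate level for Lys05 was not resolved by it. The means were 219 ± 1.86 for vehicle, 179 ± 10.04 for Lys05, 139 ± 24.6 for BAQ12, 129 ± 9.39 for BAQ13 and 126 ± 16.1 for BAQ12O (SD, n = 3 each), which for the agents were 81.8%, 63.4%, 58.7% and 57.5% of the vehicle mean. Between 82 and 263 reads per library stood behind these values.

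**Figure D1:**
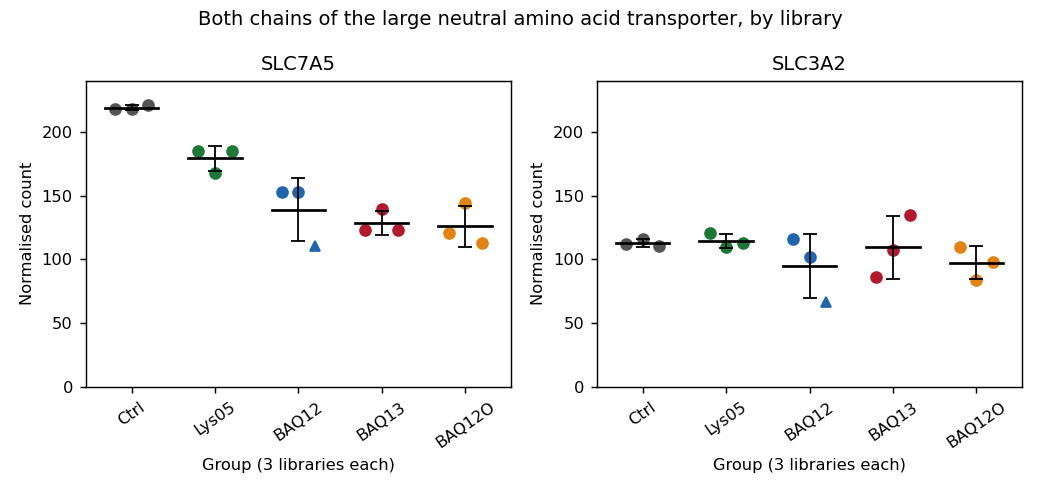
Normalised counts of SLC7A5 (left) and SLC3A2 (right) in each library of the 5 groups, with points for libraries, the third BAQ12 library as a triangle, long bars for group means and error bars for SD. All 12 treated libraries lie below the vehicle libraries for SLC7A5, whereas the SLC3A2 values of most groups overlap those of vehicle.

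In the limma fit over 10495 genes, SLC7A5 fell in 3 of the 4 comparisons with vehicle. On the log2(value + 1) scale it fell by 0.77 with BAQ13 (SE 0.13, adjusted p = 0.00107) and by 0.80 with BAQ12O (SE 0.13, adjusted p = 0.00263), and both calls were made in all 16 alternative analyses. With BAQ12 it fell by 0.67 (SE 0.13, adjusted p = 0.0127), or by 0.51 without the third BAQ12 library (adjusted p = 0.0142). The BAQ12 call was lost when the 6 libraries compared were fitted alone (adjusted p = 0.265) and when any 1 vehicle library was left out (adjusted p = 0.0614, 0.0628 and 0.0739 without replicates 1, 2 and 3). The Lys05 value was -0.29 (SE 0.13, adjusted p = 0.950, unadjusted p = 0.0379), and it did not pass the test in any of 16 alternatives, whose adjusted p lay between 0.0993 and 1.00. The 4 comparisons share the vehicle libraries.

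SLC3A2, the heavy chain, passed the test with no agent. Its vehicle libraries held 112, 116 and 110 normalised counts, the Lys05 libraries 120, 109 and 113, and the BAQ12 libraries 116, 102 and 66.6. The BAQ13 libraries held 85.8, 108 and 135 and the BAQ12O libraries 110, 83.9 and 97.9. Only with BAQ12O did all 3 libraries lie below vehicle, the nearest of them by less than 1 normalised count. The log2 differences from vehicle were 0.02 for Lys05, -0.29 for BAQ12, -0.07 for BAQ13 and -0.22 for BAQ12O (SE 0.18 each, adjusted p at least 0.527), and without the third BAQ12 library the BAQ12 value was -0.05. The 95% intervals reached from -0.67 to 0.10 for BAQ12 and from -0.61 to 0.17 for BAQ12O, which leaves decreases of that size unresolved.

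The ratio of the chains within a library does not depend on the size factor. The log2 ratio of SLC7A5 to SLC3A2 was 0.96 ± 0.05 in vehicle, 0.65 ± 0.05 with Lys05, 0.57 ± 0.16 with BAQ12, 0.25 ± 0.34 with BAQ13 and 0.37 ± 0.35 with BAQ12O (SD, n = 3 each), given as a description with no test. The linear ratio was 1.88 to 2.01 in the vehicle libraries and at most 1.72 in any treated library. In the third BAQ13 library it was 0.91, and in the third BAQ12 library the log2 ratio was 0.73, the highest of its group, so that both chains were low together there.

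SLC1A5 (ENSG00000105281, chromosome 19 from 46774883 to 46788594, minus strand), the exchanger that brings in glutamine, passed the test with no agent. The vehicle libraries held 223, 185 and 191 normalised counts, the Lys05 libraries 192, 173 and 192, and the BAQ12 libraries 182, 190 and 132. The BAQ13 libraries held 184, 158 and 176 and the BAQ12O libraries 179, 174 and 183. The BAQ13 and BAQ12O libraries all lay below the lowest vehicle library, their highest values being 184 and 183 against 185, while the Lys05 and BAQ12 libraries overlapped vehicle. The log2 differences were -0.10, -0.26, -0.21 and -0.15 for Lys05, BAQ12, BAQ13 and BAQ12O (SE 0.13 each, adjusted p at least 0.404), and the BAQ12 value was -0.10 without the third library.

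SLC38A1 (ENSG00000111371, chromosome 12 from 46183063 to 46270017, minus strand), a sodium-coupled glutamine carrier, varied least of the tested members, with its highest library 1.30 times its lowest. Its means were 376 ± 34.2 normalised counts in vehicle, 374 ± 28.0 with Lys05, 367 ± 23.3 with BAQ12, 359 ± 7.29 with BAQ13 and 336 ± 16.8 with BAQ12O (SD, n = 3 each). The BAQ12O libraries held 347, 345 and 317, of which the last was the lowest of all 15, and vehicle began at 344. The log2 difference for BAQ12O was -0.16 (SE 0.09, adjusted p = 0.484) and those of the other agents lay between -0.07 and -0.01.

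SLC38A2 (ENSG00000134294, chromosome 12 from 46358189 to 46372867, minus strand), the adaptive carrier of the same family, had vehicle values of 1872, 1999 and 1986 normalised counts. The Lys05 libraries held 2341, 2180 and 2069 and the BAQ12O libraries 2182, 2088 and 2227, all above the highest vehicle library. The BAQ12 libraries held 2047, 1952 and 1124 and the BAQ13 libraries 1676, 2023 and 2416, which straddled vehicle. No difference from vehicle passed the test: the log2 values were 0.17 for Lys05 (SE 0.17, adjusted p = 0.999), -0.24 for BAQ12, 0.05 for BAQ13 and 0.15 for BAQ12O (adjusted p = 0.762). With the 6 libraries of Lys05 and vehicle fitted alone, the same Lys05 value passed (adjusted p = 0.0396). The third BAQ12 library had 0.562 times the mean of the other BAQ12 libraries, and without it the BAQ12 value was 0.03.

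The log2 ratio of SLC38A2 to SLC38A1 was 2.38 ± 0.09 in vehicle, 2.56 ± 0.02 with Lys05, 2.17 ± 0.44 with BAQ12, 2.49 ± 0.25 with BAQ13 and 2.69 ± 0.11 with BAQ12O (SD, n = 3 each). The Lys05 libraries (2.54 to 2.58) and the BAQ12O libraries (2.60 to 2.81) lay above the vehicle libraries (2.28 to 2.45). These ratios carry no test.

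SLC38A9 (ENSG00000177058, chromosome 5 from 55625845 to 55773194, minus strand), the lysosomal arginine sensor, was counted by 2 to 17 reads per library, so differences in it were poorly resolved. The vehicle libraries held 9.96, 7.82 and 8.26 normalised counts, the Lys05 libraries 12.8, 2.08 and 9.33, and the BAQ12 libraries 8.25, 7.65 and 11.3. The BAQ13 libraries held 2.80, 7.29 and 7.54, all below vehicle, and the BAQ12O libraries 9.70, 16.2 and 4.14. The log2 difference for BAQ13 was -0.58 (SE 0.52, 95% interval -1.68 to 0.52, adjusted p = 0.603). The 95% interval was -1.44 to 0.76 for Lys05, -1.05 to 1.14 for BAQ12 and -1.07 to 1.12 for BAQ12O, so changes by a factor of 2 were not resolved.

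GLUL (ENSG00000135821, chromosome 1 from 182381704 to 182392206, minus strand), the enzyme that makes glutamine, was at or near the limit of detection in every library. The reads were 2, 1 and 0 in vehicle, 0, 2 and 3 with Lys05, 2, 1 and 2 with BAQ12, 3, 4 and 3 with BAQ13 and 2, 1 and 1 with BAQ12O. The BAQ13 libraries held 10 reads in all against 3 in vehicle, but a single library exceeded 3 reads, so no fold is given and no difference was resolvable at this depth.

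**Figure D2:**
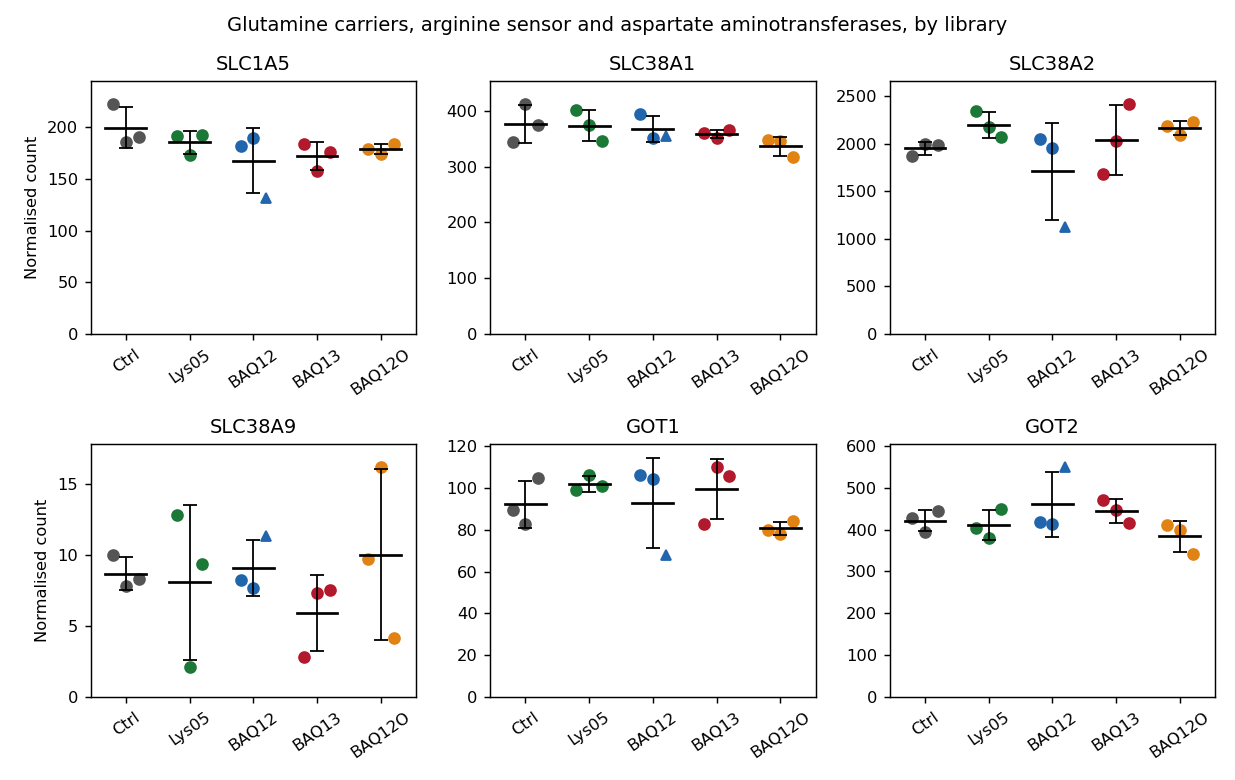
Normalised counts of the 6 other tested genes in each library, drawn as for the LAT1 chains, with the y axes starting at 0 and scaled for each gene. The third BAQ12 library (triangle) is the lowest for SLC1A5, SLC38A2 and GOT1 and the highest for GOT2, and SLC38A1 varies least.

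GOT1 (ENSG00000120053, chromosome 10 from 99396870 to 99431569, minus strand), the cytosolic aspartate aminotransferase, did not pass the test with any agent. The vehicle libraries held 89.7, 82.6 and 105 normalised counts, the Lys05 libraries 99.0, 106 and 101, and the BAQ12 libraries 106, 105 and 67.8. The BAQ13 libraries held 83.1, 110 and 106 and the BAQ12O libraries 79.8, 78.2 and 84.1. All groups overlapped vehicle, and the BAQ12O values were the most closely spaced. The log2 differences were 0.15, -0.01, 0.11 and -0.19 for Lys05, BAQ12, BAQ13 and BAQ12O (SE 0.16 each, adjusted p at least 0.680), and the BAQ12 value was 0.20 without the third library. A bidirectional RNA, AL391684.1, overlaps GOT1 over 651 bases on the opposite strand and had 101 reads in all libraries together. Whether the counting used strand is not given in the sources used here.

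GOT2 (ENSG00000125166, chromosome 16 from 58707131 to 58734357, minus strand), the mitochondrial enzyme, had vehicle values of 427, 393 and 444 normalised counts. Its means were 421 ± 26.0 in vehicle, 411 ± 35.02 with Lys05, 460.5 ± 77.7 with BAQ12, 445 ± 28.3 with BAQ13 and 384 ± 36.5 with BAQ12O (SD, n = 3 each). The third BAQ12 library, at 550, lay above all others, and the BAQ12 mean without it was 416. The log2 differences from vehicle were between -0.14 and 0.12 (SE 0.11 each, adjusted p at least 0.656). The log2 ratio of GOT1 to GOT2 was -2.20 ± 0.09 in vehicle and -2.33 ± 0.60 with BAQ12 (SD, n = 3 each), where the third library had -3.02 against -1.97 and -1.99 in the others.

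**Figure D3:**
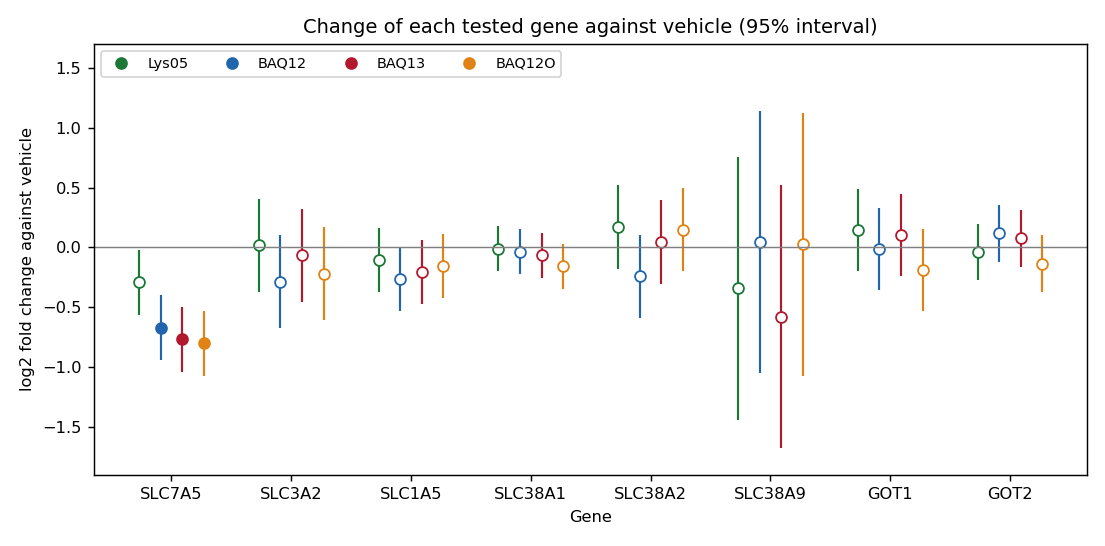
Log2 fold change against vehicle (y axis, log2(value + 1) scale) of the 8 tested genes for the 4 agents, with bars for the 95% interval and filled points for an adjusted p under 0.05. The filled points are those of SLC7A5 with BAQ12, BAQ13 and BAQ12O, and the widest intervals are those of SLC38A9.

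Read against all genes tested, the members' counts were as follows. With Lys05, 0 of 8 members passed by limma, edgeR or DESeq2, with 1 at an unadjusted p under 0.05, where 0.238% of all genes passed and 4.98% had an unadjusted p under 0.05. With BAQ12, 1 of 8 members passed (SLC7A5, lower), where 0.981% of all genes passed in either direction and 0.41% were lower. With BAQ13, 1 of 8 members passed (SLC7A5, lower), where 5.77% of all genes passed and 2.19% were lower. With BAQ12O, 1 of 8 members passed (SLC7A5, lower), where 1.48% of all genes passed and 0.543% were lower. The median log2 change of the 8 members was -0.02, -0.14, -0.07 and -0.16 for Lys05, BAQ12, BAQ13 and BAQ12O, beside medians of 0.00 over all genes in each comparison.

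Groups that did not overlap vehicle were found for 2 of 8 members with Lys05 (SLC7A5 and SLC38A2), where 15.6% of all genes did not overlap. They were found for 1 of 8 with BAQ12 (SLC7A5; 15.4% of all genes) and for 3 of 8 with BAQ13 (SLC7A5, SLC1A5 and SLC38A9; 28.9% of all genes). With BAQ12O they were found for 4 of 8 (SLC7A5, SLC3A2, SLC1A5 and SLC38A2; 25.8% of all genes).

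The agents were compared with each other at the same dose and time in 6 pairs. SLC7A5 was lower with BAQ13 than with Lys05 by a log2 difference of -0.48 (95% interval -0.75 to -0.21, adjusted p = 0.0595), and lower with BAQ12O than with Lys05 by -0.51 (95% interval -0.78 to -0.24, adjusted p = 0.186). Neither passed the test in the fit of all 15 libraries, although the libraries of the paired groups did not overlap. Without the third BAQ12 library, which enters the shared estimate of the spread, both passed (adjusted p = 0.00307 for BAQ13 and 0.00789 for BAQ12O). The BAQ13 difference also passed by edgeR (adjusted p = 0.0428), by DESeq2 (adjusted p = 0.0443) and in the 6 libraries alone (adjusted p = 0.0240), and over its 16 alternatives the adjusted p lay between 0.00307 and 0.196. The BAQ12O difference also passed in the 6 libraries alone (adjusted p = 0.00291), and over its 16 alternatives the adjusted p lay between 0.00291 and 0.682. For BAQ12 against Lys05 the difference was -0.38 (95% interval -0.65 to -0.11, adjusted p = 0.525), or -0.22 without the third BAQ12 library.

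BAQ13 and BAQ12, which differ by a methylene unit, differed in SLC7A5 by -0.10 on the log2 scale (95% interval -0.37 to 0.17, adjusted p = 0.909). Without the third BAQ12 library the difference was -0.25 (95% interval -0.49 to -0.02, adjusted p = 0.270). BAQ12O differed from BAQ12 by -0.13 (95% interval -0.40 to 0.14) and from BAQ13 by -0.04 (95% interval -0.31 to 0.24). The order of the SLC7A5 means, from the highest, was vehicle, Lys05, BAQ12, BAQ13 and BAQ12O, and over all 15 libraries BAQ12 and BAQ13, and BAQ13 and BAQ12O, did not differ beyond their spread.

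**Figure D4:**
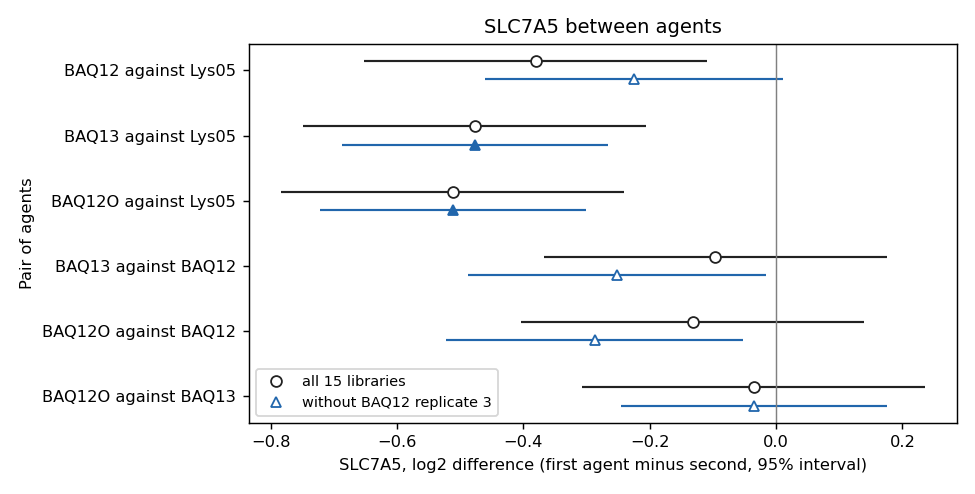
Log2 difference of SLC7A5 between agents (x axis, first agent minus second) for the 6 pairs, with bars for the 95% interval, from all 15 libraries (circles) and without the third BAQ12 library (triangles), filled where the adjusted p is under 0.05. The filled points are BAQ13 and BAQ12O against Lys05 without that library.

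The other 7 tested members gave 42 differences between agents, of which none passed by limma, edgeR or DESeq2 (lowest limma adjusted p = 0.504), and 39 of the 42 95% intervals included 0. Leaving aside SLC38A9, they lay between -0.41 and 0.39 on the log2 scale. Both ends of that range were SLC38A2 against BAQ12, at -0.41 for BAQ12 against Lys05 and 0.39 for BAQ12O against BAQ12, and without the third BAQ12 library these values were -0.13 and 0.11. Between BAQ13 and BAQ12 the largest difference outside SLC38A9 was that of SLC38A2 (0.29, 95% interval -0.06 to 0.64), which was 0.01 without that library. Counting SLC7A5, the members at an unadjusted p under 0.05 numbered 2 of 8 for BAQ12 against Lys05, 1 of 8 for BAQ13 against Lys05, 1 of 8 for BAQ12O against Lys05, 0 of 8 for BAQ13 against BAQ12, 2 of 8 for BAQ12O against BAQ12 and 0 of 8 for BAQ12O against BAQ13. In the same order, 7.17%, 14.6%, 7.36%, 8.27%, 8.38% and 11.2% of all genes had an unadjusted p under 0.05, and 0.162%, 2.66%, 0.248%, 0.562%, 0.229% and 1.39% passed the adjusted test.

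Around the members, 6 lists of genes were counted: further amino acid carriers of the cell surface, of lysosomes or vesicles and of mitochondria, enzymes of glutamine and glutamate, genes of the malate-aspartate shuttle and anaplerosis, and Ragulator, Rag GTPases and amino acid sensors. The lists were chosen with earlier results of these data known, so their counts are a description. The last list, which holds the partners of SLC38A9 at the lysosome, had the most genes that passed. Of its 21 tested genes, 0 passed with Lys05 (2 at an unadjusted p under 0.05, 0 by edgeR or DESeq2) and 2 rose with BAQ12, where 0.572% of all genes rose. With BAQ13 5 rose, where 3.58% of all genes rose, and with BAQ12O 3 rose, where 0.934% of all genes rose. None of the 21 fell in these 4 comparisons, and the median log2 change of the list was -0.05, -0.0039, 0.15 and -0.04 for Lys05, BAQ12, BAQ13 and BAQ12O.

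RRAGD, a Rag GTPase, rose from 117 ± 4.44 normalised counts in vehicle to 204 ± 34.5 with BAQ12 (log2 0.79, adjusted p = 0.00126), 288 ± 35.5 with BAQ13 (log2 1.29, adjusted p = 1.4e-06) and 184 ± 14.1 with BAQ12O (log2 0.65, adjusted p = 0.00730). FLCN, which with its FNIP partners activates RRAGC and RRAGD, rose from 63.5 ± 8.72 to 127 ± 23.5 with BAQ12 (log2 0.98, adjusted p = 0.00280), 126 ± 20.5 with BAQ13 (log2 0.98, adjusted p = 8.25e-04) and 110 ± 3.89 with BAQ12O (log2 0.79, adjusted p = 0.0150). FNIP1 rose from 192 ± 4.05 to 285 ± 2.80 with BAQ13 and to 272 ± 15.9 with BAQ12O (adjusted p = 4.53e-04 and 0.00514). RRAGC (log2 0.90, adjusted p = 0.0292) and the Ragulator subunit LAMTOR4 (log2 0.89, adjusted p = 0.0481) rose with BAQ13. Without the third BAQ12 library SESN2, LAMTOR5 and LAMTOR1 were added and 8 of the 21 rose with BAQ13, so that count moved by more than 1.5 times. The share of all genes that rose in that fit is not given here, so the 8 cannot be set against it. Leaving out 1 library at a time gave 320 to 1441 genes that passed with BAQ13 in either direction (606 with all).

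Between agents, RRAGD, FNIP1 and SESN2 (a leucine sensor) were higher with BAQ13 than with Lys05 (log2 differences 1.05, 0.45 and 0.51, adjusted p = 3.36e-05, 0.00686 and 0.0356), where 1.88% of all genes were higher. RRAGD and SESN2 were lower with BAQ12O than with BAQ13 (log2 differences -0.64 and -0.59, adjusted p = 0.00855 and 0.0225), where 0.924% of all genes were lower. SESN2 was named after its values were seen. Once the third BAQ12 library was left out, 7 genes of the list were higher with BAQ13 than with Lys05 in place of 3, and 2 were higher with BAQ12O than with Lys05 in place of 0. For BAQ13 against BAQ12 0 of the 21 passed by limma or edgeR (4 at an unadjusted p under 0.05), 1 passed by DESeq2, and 2 were higher by limma without the third BAQ12 library. The shares of all genes without that library are not given here. Leaving out 1 library at a time, 154 to 814 genes passed for BAQ13 against Lys05 (279 with all). The range was 20 to 83 for BAQ12O against Lys05 (26 with all) and 32 to 332 for BAQ13 against BAQ12 (59 with all).

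**Figure D5:**
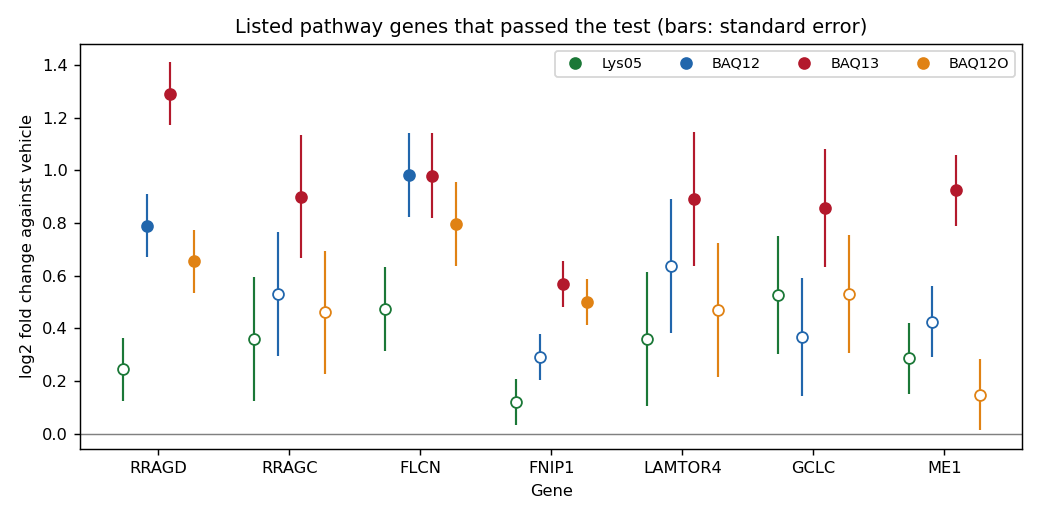
Log2 fold change against vehicle (y axis) of the 7 listed pathway genes that passed the test with at least 1 agent, with bars for the standard error and filled points for an adjusted p under 0.05. RRAGD and FLCN are filled for BAQ12, BAQ13 and BAQ12O, FNIP1 for BAQ13 and BAQ12O, and GCLC, ME1, RRAGC and LAMTOR4 for BAQ13. Between agents, by limma over all 15 libraries, ME1 and RRAGD passed for BAQ13 against Lys05 and for BAQ12O against BAQ13. FNIP1 passed for BAQ13 against Lys05, and FLCN, GCLC, RRAGC and LAMTOR4 passed in no pair.

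Of 22 tested enzymes of glutamine and glutamate, 1 rose with BAQ13, where 3.58% of all genes rose, and none passed with the other agents, so the count was near that of all genes. The gene was GCLC, the catalytic subunit of the enzyme that starts glutathione synthesis, at 29.7 ± 9.92 in vehicle and 52.7 ± 6.64 with BAQ13 (log2 0.86, SE 0.22, adjusted p = 0.0295). ASNS, which makes asparagine from glutamine, had log2 values of 0.07 with Lys05 and -0.32, -0.23 and -0.35 with BAQ12, BAQ13 and BAQ12O (adjusted p at least 0.203). Without the third BAQ12 library enzymes that fell with BAQ13 included ALDH18A1, PSAT1 and GLUD1 (log2 -0.86, -0.57 and -0.31), and PSAT1 and PFAS fell with BAQ12O (log2 -0.76 and -0.50). At an unadjusted p under 0.05 the enzymes numbered 3, 5, 5 and 8 of 22 for Lys05, BAQ12, BAQ13 and BAQ12O, where 4.98%, 11.8%, 19.4% and 12.8% of all genes had such a p, and edgeR and DESeq2 each passed 0, 0, 1 and 0.

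Of 10 tested genes of the malate-aspartate shuttle and anaplerosis, 1 passed with BAQ13, namely ME1, where 5.77% of all genes passed and 3.58% rose. This cytosolic malic enzyme, a source of NADPH, rose from 72.0 ± 5.33 normalised counts in vehicle to 137 ± 5.79 with BAQ13 (log2 0.92, SE 0.14, adjusted p = 2.73e-04), and it was higher with BAQ13 than with Lys05 (log2 difference 0.64, adjusted p = 0.0132) and lower with BAQ12O than with BAQ13 (-0.78, adjusted p = 0.00436). None of the 10 passed with Lys05, BAQ12 or BAQ12O by limma, edgeR or DESeq2 (1, 1 and 0 at an unadjusted p under 0.05, where 4.98%, 11.8% and 12.8% of all genes had such a p). Without the third BAQ12 library ME1 also rose with BAQ12 (log2 0.58, adjusted p = 0.0168) and ME2 and GLUD1, the latter also counted among the enzymes, fell with BAQ13 (log2 -0.33 and -0.31).

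None of the 9 further surface carriers, 12 lysosomal or vesicular carriers and 7 mitochondrial carriers passed with any agent by limma, edgeR or DESeq2. At an unadjusted p under 0.05 they numbered 0, 2, 2 and 2 of the surface carriers, 0, 2, 6 and 1 of the lysosomal carriers and 1, 0, 2 and 1 of the mitochondrial carriers for Lys05, BAQ12, BAQ13 and BAQ12O, where the shares of all genes were 4.98%, 11.8%, 19.4% and 12.8%. The median log2 change of the lysosomal carriers was 0.55 with BAQ13 and 0.06, 0.17 and 0.25 with Lys05, BAQ12 and BAQ12O. Without the third BAQ12 library 2 of them rose with BAQ13, namely SLC38A7, a lysosomal glutamine exporter (log2 0.82, adjusted p = 0.00658), and TMEM104 (log2 0.73, adjusted p = 0.0499). By limma over all 15 libraries they did not pass (adjusted p = 0.0820 and 0.143). The share of all genes that rose without that library is not given here. Leaving out 1 library at a time gave 320 to 1441 genes that passed with BAQ13 in either direction (606 with all). In the fit without the third BAQ12 library SLC7A1, the cationic amino acid carrier, fell with BAQ13 (log2 -0.44), SLC7A11, the cystine-glutamate exchanger, fell with BAQ12O (log2 -1.13), and the mitochondrial serine carrier SFXN1 fell with BAQ13 (log2 -0.34).

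The genes whose values followed each member most closely over the 15 libraries were ranked by Spearman's rho among 10494 other genes, as a description. All libraries share the 5 groups and the third BAQ12 library, so these values say nothing of shared control. For SLC7A5 they were DHX9 (rho 0.946, or 0.934 over 14 libraries without that one), NUP93 (0.936 and 0.921) and HNRNPC (0.925 and 0.908). For SLC38A2 they were PHLDA1 (0.929 and 0.912), SLC4A7 (0.921 and 0.903) and IRF2BP2 (0.900 and 0.877). For SLC3A2 they were STOML2 (0.889 and 0.864), EIF4G2 (0.886 and 0.859) and PSMB5 (0.886 and 0.859). For SLC1A5 they were IPO5 (0.843 and 0.811), PMPCB (0.836 and 0.798) and C4orf27 (0.829 and 0.789). The genes closest to SLC38A1 were KPNA3 (0.829 and 0.873), PITRM1 (0.818 and 0.829) and COMMD7 (0.811 and 0.815). Those closest to SLC38A9, whose reads were few, were SDCCAG3 (0.825 and 0.811), BTN2A1 (0.811 and 0.780) and CASC5 (0.807 and 0.807). For GOT1 they were RFK (0.918 and 0.899), PCBP1 (0.875 and 0.846) and CXCL1 (0.857 and 0.824), and for GOT2 ZMAT2 (0.904 and 0.881), LMNA (0.900 and 0.877) and TMEM115 (0.896 and 0.873). No member was among the 3 genes closest to another member.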

How the data were processed

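MIA PaCa-2 RNA was sequenced in 15 libraries, 3 per group, grouped by their labels. The authors deposited a normalised signal for each gene, made by dividing the reads of a gene by its library's size factor. Every non-zero value was a whole multiple of the smallest value of its library (100% within 0.01 of a read), so reads were recovered. The submitters' processing notes name STAR, HTSeq, DESeq2 and GRCh38 (hg38), with versions and roles not given in the sources used here. The labels name a 3′ mRNA kit and the methods a stranded paired-end kit, so values of different genes were not compared per length. The 92 spike-in rows held 0 reads and were left out.

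Genes were filtered with filterByExpr (minimum count 10, total 15), which kept 10495. The deposited values were tested as log2(value + 1) with limma 3.58.1 (trended eBayes, all libraries, no covariates) in R 4.3.3, in 10 two-sided comparisons, each adjusted by Benjamini-Hochberg over all genes, with a threshold of 0.05. Alternatives were edgeR 4.0.16 (quasi-likelihood) and DESeq2 1.42.0 on recovered reads, TMM factors, and other filters and pseudocounts. Further alternatives were the 6 libraries compared alone, a replicate block and leaving out 1 library at a time. The library left out came from either group compared or was the third BAQ12 library. On the recovered reads edgeR called 24, 102, 689 and 160 genes for Lys05, BAQ12, BAQ13 and BAQ12O against vehicle. The limma, edgeR and DESeq2 tests were checked on simulated data for BAQ13 against vehicle, with 200 genes changed by a log2 of 1 or 2. They recovered 63.3% to 64.4% of the changes of 1 and 96.4% to 99.1% of those of 2. False calls numbered 3 by limma, 4 by edgeR and 5 by DESeq2. Apart from the changed genes, all simulated libraries shared 1 mean profile, so none stood apart as the third BAQ12 library did. Smaller changes and the other comparisons were not simulated.

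Coordinates came from GENCODE 29, in which 56531 of the 60107 identifiers were found, and promoter windows from RefSeq (GRCh38.p14). The members and lists were chosen with earlier results of these data known. All members were named, with list genes that passed against vehicle (at most 6 a list and comparison) and the 3 genes most like each tested member. ASNS, SESN2 and genes that passed only without the third BAQ12 library were named after their values were seen. The 10 listed pseudogenes of members had 0 reads. Some genes of the lists and loci are not reported here.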

Additional observations from a re-analysis of the deposited data

How the results depend on the processing

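The SLC7A5 decrease with BAQ13 and BAQ12O kept its direction and its side of the threshold in all 16 alternatives counted for each. The BAQ12 decrease kept only its direction over its 15 alternatives. Low reads limit SLC38A9 and GLUL, and where a cause is not named, the cause was not tested. With the 6 libraries compared alone, members that passed numbered 1 for Lys05 and 0 for BAQ12 against vehicle. They numbered 1 each for BAQ13 and BAQ12O against Lys05. All genes that passed then numbered 115, 31, 947 and 871 for Lys05, BAQ12, BAQ13 and BAQ12O against vehicle, 0 and 223 for BAQ12 and BAQ12O against Lys05, and 9 and 8 for BAQ13 and BAQ12O against BAQ12. For BAQ12 against Lys05, 26 genes passed by DESeq2 and 11 with no filter, against 17. For BAQ13 against Lys05, 1 member passed by edgeR and 1 by DESeq2.

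Leaving out 1 library at a time gave 19 to 51 genes for Lys05 against vehicle (25 with all), 56 to 137 for BAQ12 (103), 320 to 1441 for BAQ13 (606) and 75 to 524 for BAQ12O (155). It gave 8 to 26 for BAQ12 against Lys05 (17), 154 to 814 for BAQ13 against Lys05 (279) and 20 to 83 for BAQ12O against Lys05 (26). It gave 32 to 332 for BAQ13 against BAQ12 (59), 14 to 54 for BAQ12O against BAQ12 (24) and 72 to 387 for BAQ12O against BAQ13 (146). Members that passed ranged from 0 to 1 for BAQ12 against vehicle and for BAQ13 and BAQ12O against Lys05.

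Among the differences from vehicle and those between BAQ13 and BAQ12, the sign of several members turned when 1 library was left out. Against vehicle with Lys05, they ranged from -0.073 to 0.057 for SLC38A1, -0.10 to 0.017 for GOT2, -0.021 to 0.048 for SLC3A2 and -0.77 to 0.31 for SLC38A9. With BAQ12 they ranged from -0.10 to 0.031 for SLC38A1, -0.40 to 0.034 for SLC38A2, -0.11 to 0.15 for SLC38A9, -0.12 to 0.20 for GOT1 and -0.018 to 0.19 for GOT2. GOT1 with BAQ12 was 0.030 by edgeR and 0.024 by DESeq2. With BAQ13 they ranged from -0.13 to 0.00049 for SLC38A1, -0.23 to 0.095 for SLC3A2 and -0.084 to 0.18 for SLC38A2, and with BAQ12O from -0.38 to 0.49 for SLC38A9. For BAQ13 against BAQ12 they ranged from -0.061 to 0.021 for SLC38A1, -0.013 to 0.38 for SLC3A2, -0.11 to 0.15 for SLC1A5, -0.092 to 0.24 for GOT1 and -0.11 to 0.095 for GOT2. For BAQ12O against BAQ13 the SLC7A5 value ranged from -0.13 to 0.038.

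The groups share replicate numbers, which name libraries only. Deviations of same-numbered libraries from their group means correlated between -0.492 and 0.2, over 0.1 in 4 of 30 pairs. In the fit with the replicate block, 21, 77, 512 and 119 genes passed against vehicle for Lys05, BAQ12, BAQ13 and BAQ12O, and 0, 1, 1 and 1 members, the same counts of members as without the block. Of the list genes named as passing, LAMTOR4 for BAQ13 against vehicle and SESN2 for BAQ13 against Lys05 lost their calls with the block (adjusted p = 0.0632 and 0.0683).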
